A study of Arabidopsis thaliana with 36 samples.

Results

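The transcripts described here come from 10 ethylene response factor (ERF) genes of group IX of the AP2/ERF family in Arabidopsis thaliana. They were chosen by locus identifier, and all 10 were found among the 32678 genes of the count table. They are ERF1 (AT3G23240), ORA59 (AT1G06160), ERF1A (AT4G17500), ERF2 (AT5G47220), ERF13 (AT2G44840), ERF5 (AT5G47230), ERF6 (AT4G17490), ERF104 (AT5G61600), ERF105 (AT5G51190) and DEWAX (AT5G61590). All 10 passed the filter on low counts, which kept 21356 genes. Whole seedlings, 12 days old and of accession Col-0, came in 4 genotypes, which were wild type (WT), wrky18, wrky40 and a line with both mutations, wrky18 wrky40, called the double mutant. The mutated genes encode related WRKY factors that microbial patterns induce. Seedlings were left untreated (0 h) or received fresh medium with 1 µM flg22, a peptide of bacterial flagellin, for 1 h or 2 h. Each of the 12 groups has 3 biological replicates, which makes 36 libraries. Since the 0 h seedlings kept their old medium, any comparison with 0 h joins flg22, fresh medium and time of day, which cannot be told apart. All values are from whole seedlings, so more transcript per cell cannot be told apart from more cells that express a gene.

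ERF proteins bind the GCC-box (GCCGCC) and related promoter elements through a single AP2 domain, and group IX members are mostly activators of defence genes. ERF1 and ORA59 are induced by ethylene and jasmonate and drive genes such as the plant defensin PDF1.2. ERF5, ERF6, ERF104 and ERF105 are close relatives, and ERF6 and ERF104 are known substrates of the MAP kinases that act downstream of flagellin perception. DEWAX differs in its known role, since it represses genes of cuticular wax synthesis. WRKY proteins bind the W-box, searched here as TTGACC or TTGACT. The label of activators is a name from earlier work, and transcript counts do not test it.

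All 10 genes have a single exon in the RefSeq annotation of TAIR10.1. ERF6 and ERF1A are neighbours on chromosome 4 with a gap of 5041 bases and 0 genes between them. DEWAX and ERF104 are neighbours on chromosome 5 with a gap of 832 bases and 0 genes between them. ERF2 and ERF5, also on chromosome 5, are 6924 bases apart with 2 genes between them. ERF105 lies with its whole 965 bases over the other strand of AT5G51180, and no other member overlaps a gene. The strand setting of the counting is not given in the sources used here, so reads of ERF105 and AT5G51180 may be mixed. AT5G51180 had a mean of 18.5 ± 2.06 CPM (counts scaled to library size; SD, n = 3) at 0 h, 22.1 ± 0.496 at 1 h and 30.2 ± 0.483 at 2 h in WT, which is not the time course of ERF105 given below. Coding sequences were most alike between ERF1A and ERF2, at 77.6% identity, and between ERF5 and ERF6, at 77.5%. The longest run of bases that transcripts of any pair of members share was 31.

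ERF1A and ERF2 share a run of 26 bases close to their gene starts. It is printed because it was the longest run found among all pairs of members. The same pair had the most similar coding sequences. The run holds a G-box (CACGTG) and ends 62 bases before the start of ERF1A and 15 bases before that of ERF2. It was found in 0 of the other promoters among the 31911 examined at this length, and the next longest run shared by a pair of members had 13 bases. The 250 bases before each gene start follow, from RefSeq TAIR10.1 and 5′ to 3′ on the gene's strand, with the shared run in capitals. ERF1A is on the plus strand at chr4:9758953-9759202 and ERF2 on the minus strand at chr5:19172957-19173206.
ERF1A: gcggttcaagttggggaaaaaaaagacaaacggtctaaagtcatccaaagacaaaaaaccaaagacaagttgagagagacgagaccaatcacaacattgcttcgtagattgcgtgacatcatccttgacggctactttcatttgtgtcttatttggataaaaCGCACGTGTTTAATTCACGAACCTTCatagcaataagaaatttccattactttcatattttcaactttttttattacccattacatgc
ERF2: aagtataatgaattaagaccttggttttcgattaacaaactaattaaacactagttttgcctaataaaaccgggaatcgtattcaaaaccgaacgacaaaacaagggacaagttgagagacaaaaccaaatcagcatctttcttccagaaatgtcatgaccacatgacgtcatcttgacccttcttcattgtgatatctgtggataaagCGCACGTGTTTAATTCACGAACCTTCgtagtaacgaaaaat

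ERF5 is shown because it was called higher than WT in both genotypes that carry wrky40 at every time in the fit over all groups. Several of these calls were lost in fits without 1 library, as given below. Its promoter holds 1 W-box, in capitals as its reverse complement, and ERF5 lies on the plus strand with the 250 bases at chr5:19179631-19179880.
ERF5: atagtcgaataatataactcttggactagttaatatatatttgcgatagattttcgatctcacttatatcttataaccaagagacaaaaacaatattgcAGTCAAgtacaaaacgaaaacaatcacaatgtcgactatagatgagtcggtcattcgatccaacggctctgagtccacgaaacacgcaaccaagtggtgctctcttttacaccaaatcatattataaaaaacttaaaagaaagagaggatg

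A W-box on either strand was found in the 250 bases of 3 of the 10 members (ERF2, ERF5 and ERF105), against 28.1% of all promoters. In 1000 bases 7 of 10 members had one, against 67.2% of all promoters. ERF2 and ERF5 had 4 each in 1000 bases, a number reached or passed by 4.69% of promoters. The GCC-box was found only in the 250 bases of ORA59, against 1.98% of all promoters. A G-box was found in the 250 bases of 3 of the 10 members (ORA59, ERF1A and ERF2), against 5.91% of all promoters. These matches describe letters and say nothing about binding.

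The libraries held 17287229 to 38709715 counts in genes. WRKY40 transcript was lower in both genotypes that carry wrky40 at each time, at 25.2 ± 1.53 and 25.5 ± 6.04 CPM against 223 ± 15.3 in WT at 1 h. WRKY18 transcript was lower in wrky18 and in the double mutant but not gone, at 28.1 ± 3.22 and 52.3 ± 2.91 CPM against 125 ± 10.1 in WT at 1 h. In wrky40 WRKY18 rose above WT, to 312 ± 7.37 CPM at 1 h. Shoot and root markers (RBCS1A, LHCB1.3, CAB3, PYK10, CASP1 and RHD6) were present in all groups. The summed level of 6 touch and cold genes (TCH2, TCH3, TCH4, CBF1, CBF2 and CBF3) was 197 to 292 CPM in WT at 0 h, 2699 to 2927 CPM at 1 h and 1613 to 1835 CPM at 2 h, with CBF1 and CBF3 near 0 throughout. Their part in the changes after flg22 was not tested. WT replicate 3 deviated most of the untreated libraries. It was the highest of the 3 untreated WT libraries for 9 of 10 members, by 0.68 on the log2 scale on average over the mean of its group. Replicate 3 at 0 h was also highest for most members of every mutant, with smaller mean deviations. The double mutant had 6 such members (0.09), wrky40 7 (0.07) and wrky18 6 (0.29). WT replicate 3 also had the highest summed level of the touch and cold genes, 292 CPM against 233 and 197. Replicate 3 led each mutant here too, at 383 CPM (double mutant), 331 CPM (wrky40) and 321 CPM (wrky18). How much of the WT deviation went with the replicate number was not tested. Where leaving out WT replicate 3 at 0 h changed a call or moved a called value by over 1.5 times, the value without it is given. Such fits kept replicate 3 of the mutants.

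**Figure D1:**
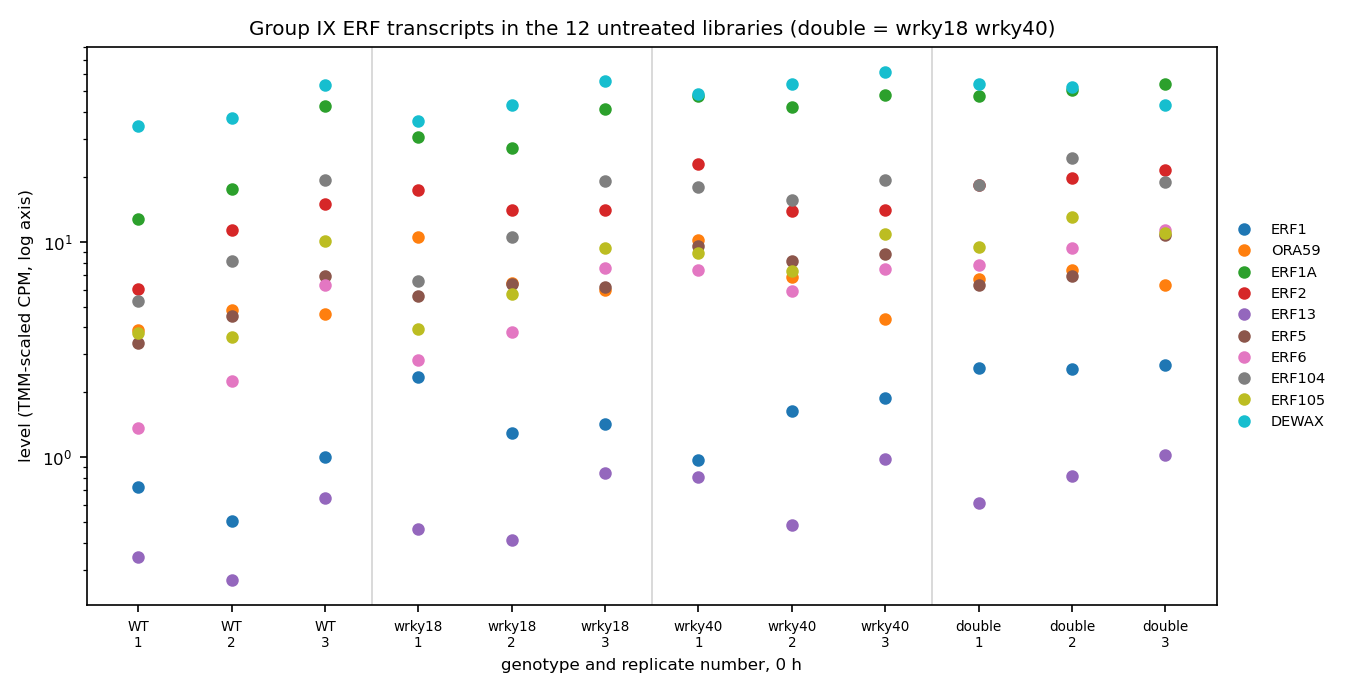
Level of each of the 10 genes in the 12 untreated libraries (CPM scaled by TMM, log axis), with the 3 replicates of each genotype beside each other and 1 colour a gene. WT replicate 3 sits above the other WT libraries for 9 of 10 genes.

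Per kilobase of transcript, the order of levels in WT changed with time. At 0 h DEWAX led with 33.3 ± 8.24 CPM per kb, followed by ERF1A with 20.5 ± 13.6 and ERF2 with 8.19 ± 3.41. ERF104 (7.89 ± 5.37), ERF105 (6.03 ± 3.83), ORA59 (4.09 ± 0.452), ERF5 (3.80 ± 1.39) and ERF6 (2.48 ± 1.97) followed, and neighbours in this order from DEWAX down to ERF1 differed by less than their spread. ERF1 (0.754 ± 0.254) and ERF13 (0.378 ± 0.181) were lowest. At 1 h ERF6 led with 99.2 ± 2.24 CPM per kb, ahead of ERF1A with 62.6 ± 2.33, ERF105 with 42.3 ± 5.87 and ERF5 with 40.9 ± 1.97, the last pair within their spread. DEWAX had dropped to 4.10 ± 0.677, above only ERF1 (1.33 ± 0.438) and ORA59 (1.24 ± 0.209). At 2 h ERF1A led with 174 ± 15.7 CPM per kb, ahead of ERF6 (52.4 ± 2.67) and ERF5 (51.0 ± 4.91), which lay within their spread.

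The first comparison asks how each gene answered flg22 in WT. After 1 h, 6 of 10 members were higher and 2 lower at an adjusted p below 0.05, in a transcriptome in which 28.8% of tested genes were higher and 32% lower. After 2 h, 7 were higher and 2 lower, where 36.7% of all genes were higher and 35.1% lower. The median log2 change of the members was 1.22 at 1 h and 1.83 at 2 h, beside -0.05 and -0.01 over all tested genes. Between 1 h and 2 h, 5 members rose and 4 fell, against 27.9% and 23.9% of all genes. The 10 genes thus took several courses, which are given by role.

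**Figure D2:**
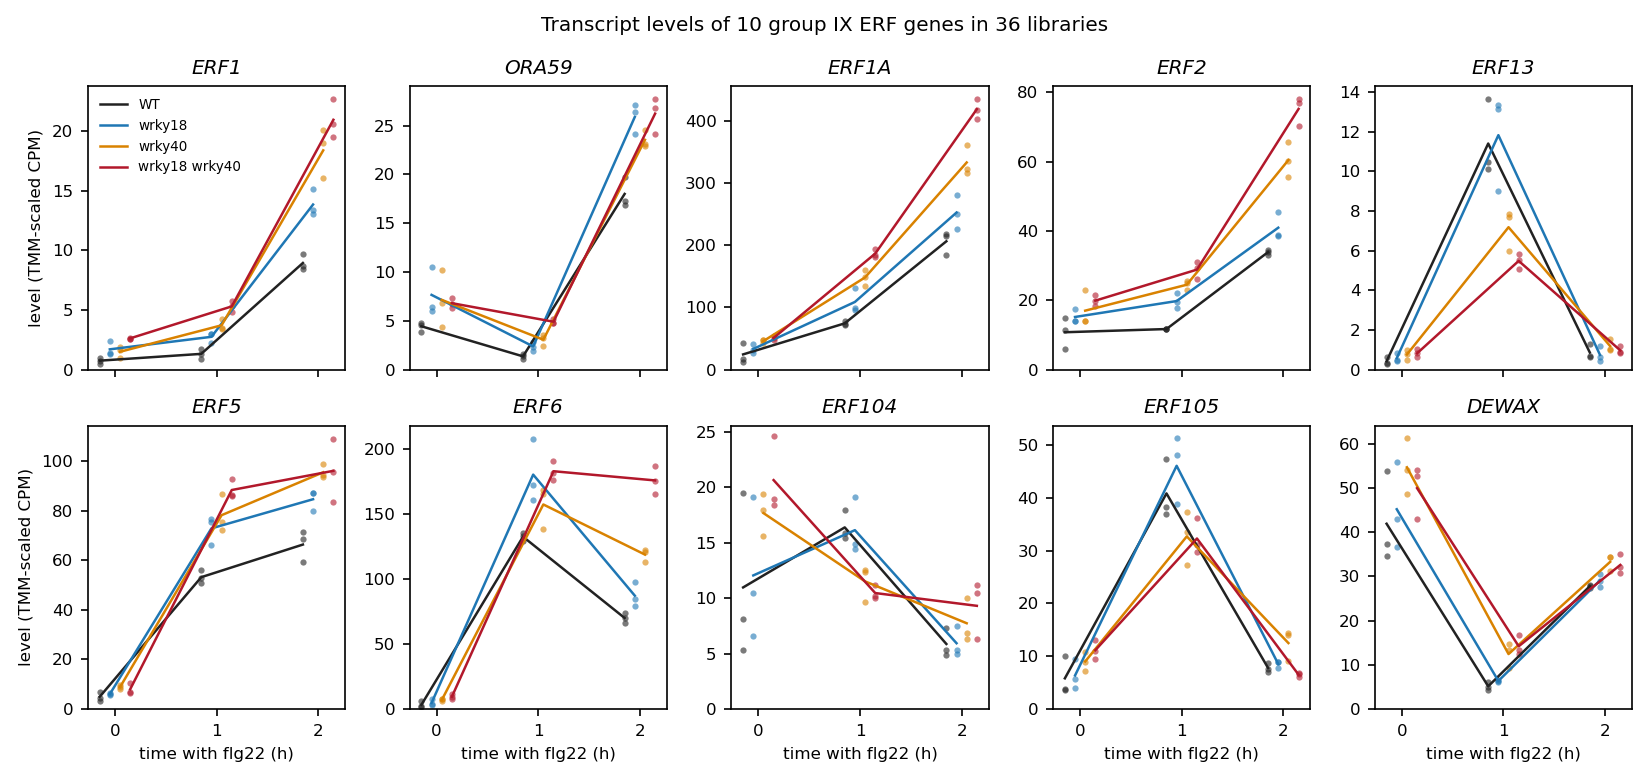
Level of each gene (CPM scaled by TMM, axis from 0, own scale per panel) against time with flg22; points are libraries, lines join the group means, colours mark the genotypes. ERF1, ORA59, ERF1A and ERF2 were highest at 2 h, ERF6, ERF13 and ERF105 at 1 h, and DEWAX was lowest at 1 h.

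ERF1 and ORA59, the ethylene and jasmonate integrators, peaked at 2 h. ERF1 had 0.723, 0.506 and 1.01 CPM in the WT libraries at 0 h, 1.75, 0.888 and 1.31 CPM at 1 h, and 8.71, 8.46 and 9.66 CPM at 2 h. The 2 h libraries lay far above the others, while those of 0 h and 1 h overlapped. ERF1 was higher by 0.84 ± 0.28 (log2, SE) at 1 h (edgeR adjusted p = 0.011), a call lost without WT replicate 1 at 1 h (0.57) or WT replicate 2 at 0 h (0.62). At 2 h it was higher by 3.57 ± 0.22. ORA59 first fell and then rose: it had 3.88, 4.82 and 4.61 CPM at 0 h, 1.57, 1.12 and 1.35 CPM at 1 h, and 19.8, 17.3 and 16.9 CPM at 2 h. None of its 3 groups overlapped another. ORA59 fell by 1.70 ± 0.25 at 1 h and was 2.02 ± 0.19 above 0 h at 2 h, a climb of 3.72 ± 0.23 within the second hour.

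ERF1A and ERF2, GCC-box activators of group IX, were also highest at 2 h. ERF1A had 12.8, 17.6 and 42.8 CPM at 0 h, 71.9, 77.4 and 73.9 CPM at 1 h, and 185, 219 and 216 CPM at 2 h. The groups did not overlap, although the untreated libraries were widely spread. ERF1A was higher by 1.60 ± 0.23 at 1 h and by 3.08 ± 0.23 at 2 h, and by 2.29 and 3.76 without WT replicate 3 at 0 h. ERF2 had 6.01, 11.4 and 14.9 CPM at 0 h and 11.6, 11.7 and 11.8 CPM at 1 h, a log2 difference of 0.11 ± 0.19 that was not called. At 2 h it had 34.6, 33.0 and 34.1 CPM and was higher than at 0 h by 1.65 ± 0.18. Between 1 h and 2 h it rose by 1.54 ± 0.18.

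ERF13, a further group IX activator, had the sharpest pulse. It had 0.343, 0.270 and 0.649 CPM at 0 h, 10.1, 13.6 and 10.5 CPM at 1 h, and 1.27, 0.646 and 0.659 CPM at 2 h. The 1 h libraries stood clear of both other groups, which overlapped. ERF13 rose 26.5-fold at 1 h (log2 4.73 ± 0.31) and fell by 3.75 ± 0.28 in the second hour. Its remaining difference of 0.98 ± 0.39 at 2 h (edgeR adjusted p = 0.028) was not called without WT replicate 1 at 0 h (0.86), WT replicate 2 at 0 h (0.73) or WT replicate 1 at 2 h (0.61), nor with upper quartile factors (0.71) or with only the groups compared (0.97).

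ERF5 and ERF6, relatives with a known role in defence and growth under stress, rose early and stayed high. ERF5 had 3.39, 4.52 and 6.94 CPM at 0 h, 56.0, 50.9 and 52.7 CPM at 1 h, and 68.4, 59.2 and 71.4 CPM at 2 h. It was higher by 3.41 ± 0.16 at 1 h and by 3.73 ± 0.16 at 2 h, and its change of 0.32 ± 0.14 between the times was not called (edgeR adjusted p = 0.054), though it was without WT replicate 2 at 2 h (0.39). ERF6 had 1.37, 2.26 and 6.32 CPM at 0 h, 136, 133 and 130 CPM at 1 h, and 70.0, 73.8 and 66.7 CPM at 2 h. ERF6 had the largest rise of the 10 genes at both times, 5.29 ± 0.29 and 4.38 ± 0.28 (6.17 and 5.25 without WT replicate 3 at 0 h), and fell by 0.92 ± 0.23 between them. ERF6 and its neighbour ERF1A thus moved in opposite directions in the second hour.

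ERF104 and ERF105 both fell between 1 h and 2 h. ERF105, known for its induction by cold, had 3.77, 3.61 and 10.1 CPM at 0 h, 36.9, 47.3 and 38.3 CPM at 1 h, and 7.61, 7.07 and 8.65 CPM at 2 h. It rose by 2.80 ± 0.26 at 1 h (3.47 without WT replicate 3 at 0 h) and fell by 2.39 ± 0.26 in the second hour, and its difference of 0.40 ± 0.28 from 0 h at 2 h was not called. Without WT replicate 3 at 0 h that difference was 1.07 and called. ERF104, a MAP kinase substrate, had 5.33, 8.12 and 19.4 CPM at 0 h, 15.4, 17.9 and 15.8 CPM at 1 h, and 4.90, 5.36 and 7.33 CPM at 2 h. Replicate 3 at 0 h exceeded every later WT library. ERF104 differed by 0.57 ± 0.31 at 1 h (not called, and 1.27 and called without that library) and was lower by 0.91 ± 0.33 at 2 h. That second call was lost without WT replicate 3 at 0 h (-0.20) or WT replicate 1 at 2 h (-0.81), and with only the groups compared (-0.92). Its fall of 1.48 ± 0.33 from 1 h to 2 h does not use the untreated libraries.

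DEWAX, the wax repressor, ran opposite to the early genes. It had 34.5, 37.4 and 53.7 CPM at 0 h, 4.33, 6.03 and 5.08 CPM at 1 h, and 27.9, 27.3 and 28.1 CPM at 2 h. No group overlapped another, and the 1 h libraries were lowest. DEWAX fell by 3.04 ± 0.18 at 1 h, recovered by 2.44 ± 0.18 in the second hour and was still 0.59 ± 0.15 lower at 2 h. Its neighbour ERF104 had its highest WT mean at 1 h, when DEWAX was lowest.

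The genes most like each member were taken as the 3 with the highest Pearson r of mean log2 CPM over the 12 groups, as a description. ERF1 and ERF2 were each other's nearest gene of all those tested (r = 0.9845). ERF6 was most like CNI1 (r = 0.9987), ERF5 most like AT4G16820 (0.9973) and IGMT1 (0.9969), and ERF1A most like NIMIN1 (0.9906). ERF105 was most like CAF1a (0.9893) and had ERF13 among its 3 nearest genes (0.9778), while ERF13 was most like AT1G74450 (0.9862). DEWAX was most like AT1G23390 (0.9863) and the ethylene receptor gene ERS2 (0.98). ORA59 was most like AT5G09880 (0.9721), and ERF104 had the weakest nearest gene, AT3G10020 (0.9315). The groups share genotypes and times, so the 12 points are not independent.

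Most members were also called after flg22 in the single and double mutants, counted here in either direction. In wrky18, 8 of 10 members were called at 1 h and 8 at 2 h, against 60.3% and 73.3% of all genes. In wrky40, 9 were called at 1 h and 8 at 2 h, against 62.1% and 73.3%. In the double mutant all 10 were called at 1 h and 9 at 2 h, against 62.7% and 72.5%. Of these, 7 were higher and 3 lower at 1 h, and 6 higher and 3 lower at 2 h. ERF104 was lower at 1 h there (-1.06 to -0.84 in fits without 1 library), where WT gave 0.24 to 1.27. ERF105 was lower at 2 h than at 0 h (-0.88 to -0.64), where WT gave 0.15 to 1.07. Neither change was called in WT in the fit over all groups, nor was either difference from WT. Between 1 h and 2 h, wrky18 had 9 members called, wrky40 had 7 and the double mutant 7, against 54.6%, 52% and 47.8%. Most genes of the transcriptome were called in these comparisons, and whether the members' shares differ from it was not tested.

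The next comparisons ask whether loss of WRKY18, of WRKY40 or of both changed the level of the members. They share the WT libraries of each time. In wrky18 alone edgeR called 0 of 10 members at 0 h, 1 h and 2 h, where it called 0.0234%, 0.117% and 0.103% of all genes. At an unadjusted p below 0.05 the counts were 3, 5 and 3, and DESeq2 called 1, 2 and 1, with ERF1 among them at each time. All 3 wrky18 libraries were above all 3 of WT for 2 members at 0 h (ERF1 and ORA59), 7 at 1 h and 6 at 2 h, where this held for 4.45%, 8.73% and 8.38% of all genes. The members at 1 h were ERF1, ORA59, ERF1A, ERF2, ERF5, ERF6 and DEWAX, and at 2 h the same without DEWAX. Their mean differences at 1 h ran from 0.31 ± 0.20 for DEWAX to 1.02 ± 0.24 for ERF1. The call for ERF1 at 1 h was made without wrky18 replicate 3 (1.17), and at 0 h ERF1 (1.44), ERF1A (1.13) and ERF6 (1.39) were called without WT replicate 3, where 0.102% of all genes were higher. WT replicate 3 was singled out for its high values of the members at 0 h, so that share is not a like measure. The fit without it kept wrky18 replicate 3, the highest of its group for 6 members at 0 h.

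In wrky40, 1 member was higher at 0 h, 6 at 1 h and 3 at 2 h, against 0.309%, 1.68% and 2.74% of all genes. Lower calls made up 0.0234%, 0.557% and 1.28% of all genes, and the member with the lowest value was ERF13 at 1 h (-0.67 ± 0.22, edgeR adjusted p = 0.12), which was not called. At 1 h the 6 were ERF1 (1.45 ± 0.23), DEWAX (1.28 ± 0.19), ORA59 (1.18 ± 0.27), ERF2 (1.07 ± 0.18), ERF1A (1.00 ± 0.22) and ERF5 (0.56 ± 0.14). ERF2 had 22.9, 25.7 and 24.9 CPM in wrky40 at 1 h against 11.6, 11.7 and 11.8 CPM in WT, and the groups did not overlap. At 2 h ERF1 (1.04 ± 0.16), ERF2 (0.84 ± 0.17) and ERF5 (0.53 ± 0.14) were called, with ERF1 at 16.0, 20.1 and 19.0 CPM against 8.71, 8.46 and 9.66 CPM in WT. ERF6 (0.76 ± 0.23, edgeR adjusted p = 0.052) and ERF1A (0.69 ± 0.21, adjusted p = 0.063) were not called.

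Several of the wrky40 calls at 1 h and 2 h were lost in fits without 1 library, while their log2 changes stayed near those above. ERF5 at 1 h was not called without any 1 of WT replicates 1, 2 and 3 or wrky40 replicates 2 and 3 (0.47 to 0.59). ERF5 at 2 h was lost without WT replicate 1 (0.55), WT replicate 2 (0.45), wrky40 replicate 1 (0.50) or wrky40 replicate 3 (0.54). ORA59 at 1 h was lost without WT replicate 2 (1.07), WT replicate 3 (1.18) or wrky40 replicate 3 (1.08), and ERF1A at 1 h without WT replicate 1 (0.97) or wrky40 replicate 2 (0.93). The calls for ERF1, ERF2 and DEWAX at 1 h held in each such fit.

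At 0 h the wrky40 comparison turned on WT replicate 3. ERF5 was the 1 member called, at 9.60, 8.15 and 8.75 CPM against 3.39, 4.52 and 6.94 CPM (0.83 ± 0.17, edgeR adjusted p = 0.021). The call was lost without WT replicate 1 (0.62) or WT replicate 2 (0.76), and with only the groups compared (0.83). Without WT replicate 3, 8 of 10 members were called higher, where 0.992% of all genes were. They were ERF6 (1.91), ERF1A (1.59), ERF104 (1.38), ERF105 (1.28), ERF1 (1.245), ERF5 (1.156), ERF2 (0.97) and DEWAX (0.60). That library was singled out for its high values of the members, so leaving it out favours higher calls for them. The share over all genes is therefore not a like measure. Replicate 3 of wrky40, the highest of its group for 7 members at 0 h, stayed in that fit. ERF1 was also called without wrky40 replicate 1 (1.22) and ORA59 without wrky40 replicate 3 (0.95). The summed touch and cold genes at 0 h were 203 to 321 CPM in wrky18, 270 to 331 CPM in wrky40 and 333 to 383 CPM in the double mutant, against 197 to 292 CPM in WT. They moved with the members at 0 h and their part was not tested.

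In the double mutant 5 members were higher than WT at 0 h, 6 at 1 h and 6 at 2 h, against 1.84%, 3.99% and 7.23% of all genes. 1 member was lower, ERF13 at 1 h, where lower calls made up 0.721%, 1.8% and 6.96% of all genes at the 3 times. ERF1 was higher at all 3 times. It had 2.60, 2.58 and 2.68 CPM at 0 h against 0.723, 0.506 and 1.01 CPM in WT (1.80 ± 0.25), and 5.31, 5.72 and 4.86 CPM at 1 h against 1.75, 0.888 and 1.31 CPM (1.97 ± 0.22). Every double mutant library lay above every WT library. At 2 h ERF1 was 1.23 ± 0.16 higher, with 22.7, 20.6 and 19.5 CPM.

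ORA59 was higher at 1 h in the double mutant, with 4.78, 5.2 and 4.73 CPM against 1.57, 1.12 and 1.35 CPM in WT, 1.84 ± 0.25 higher. At 2 h it was 0.54 ± 0.17 higher, a call lost without WT replicate 2 (0.52), WT replicate 3 (0.50) or double mutant replicates 1 (0.53) or 2 (0.50), and with upper quartile factors (0.48). ERF1A and ERF2 were higher at all 3 times. ERF1A had 47.5, 50.9 and 54.0 CPM at 0 h, 182, 193 and 185 CPM at 1 h and 418, 404 and 435 CPM at 2 h, and was above WT by 1.05 ± 0.22 (1.74 without WT replicate 3), 1.33 ± 0.22 and 1.02 ± 0.22. ERF2 was above WT by 0.87 ± 0.18, 1.3 ± 0.18 and 1.15 ± 0.17, with 78.2, 70.4 and 77 CPM at 2 h. At 0 h the calls were lost without WT replicate 1 for ERF1A (0.75) and ERF2 (0.60), and for ERF1A also without WT replicate 2 (0.86). With only the groups compared ERF1A (1.06), ERF2 (0.88), ERF5 (0.68) and ERF6 (1.5) were not called at 0 h.

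ERF5 was also higher at all 3 times, by 0.66 ± 0.17, 0.73 ± 0.14 and 0.53 ± 0.14. At 0 h the call was lost without WT replicate 1 (0.46), WT replicate 2 (0.60) or double mutant replicate 3 (0.41), and at 2 h without double mutant replicate 1 (0.43). ERF6 had 7.83, 9.34 and 11.3 CPM at 0 h (1.49 ± 0.29 higher, and 2.37 without WT replicate 3) and 165, 176 and 187 CPM at 2 h against 70.0, 73.8 and 66.7 CPM in WT (1.33 ± 0.23 higher). At 1 h, when WT itself was at its maximum, ERF6 had 182, 191 and 176 CPM against 136, 133 and 130 CPM, which was not called (0.46 ± 0.23). ERF6 fell by 0.92 ± 0.23 between 1 h and 2 h in WT, where the double mutant changed by -0.06 ± 0.22, and the difference between those changes was not tested.

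ERF13 went the other way. It had 5.51, 5.84 and 5.10 CPM at 1 h in the double mutant against 10.1, 13.6 and 10.5 CPM in WT and was lower by 1.06 ± 0.22. It was the 1 member called lower than WT in any mutant in the fit over all groups, while fits on only the groups compared also called ERF13 (-0.68) and ERF104 (-0.52) lower in wrky40 at 1 h, and ERF104 and ERF105 lower in the double mutant at 1 h. DEWAX had 13.3, 16.8 and 12.4 CPM at 1 h against 4.33, 6.03 and 5.08 CPM and was higher by 1.47 ± 0.18, while at 0 h and 2 h its differences of 0.25 ± 0.15 and 0.23 ± 0.15 were not called. ERF104 (0.90 ± 0.30 at 0 h, -0.65 ± 0.31 at 1 h) and ERF105 (0.93 ± 0.27 and -0.34 ± 0.23) were not called at any time in the fit over all groups. Without WT replicate 3 at 0 h they were called higher at 0 h (1.61 and 1.60), and ERF105 was also called there by DESeq2 (0.95) and without the filter (0.94). At 1 h the fit on only the groups compared called both lower (-0.65 and -0.35), the opposite direction.

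**Figure D3:**
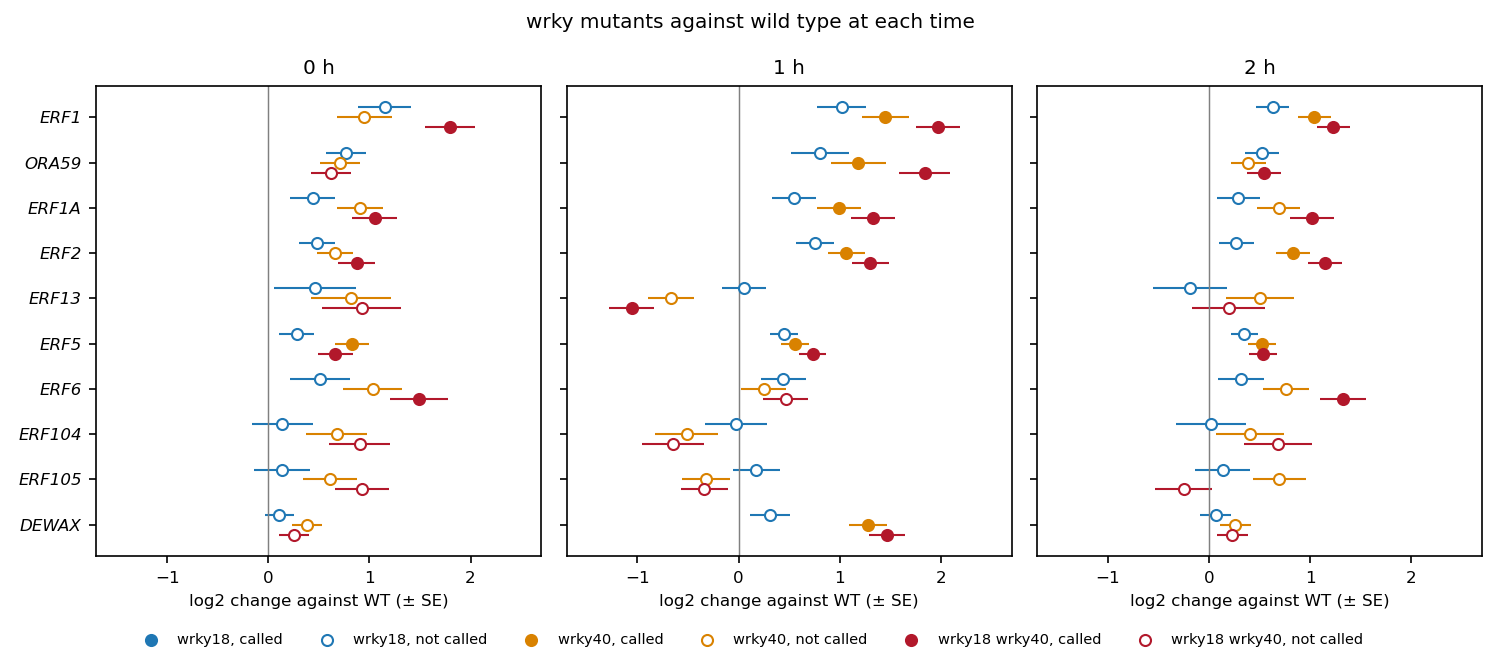
Log2 change against WT for each gene (± SE, 3 against 3 libraries) in wrky18, wrky40 and the double mutant at 0 h, 1 h and 2 h; filled points passed an adjusted p below 0.05. Most points lie right of 0, and ERF13 in the double mutant at 1 h is the filled point left of it.

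The double mutant was set against each single mutant to ask what the second loss added. Against wrky18, edgeR called 0 members at 0 h (7 at an unadjusted p below 0.05, and 2 by DESeq2), 5 at 1 h and 4 at 2 h, beside 1.46%, 5.88% and 6.48% of all genes. At 1 h DEWAX (1.16 ± 0.18), ORA59 (1.03 ± 0.23), ERF1 (0.96 ± 0.20) and ERF1A (0.78 ± 0.22) were higher and ERF13 was lower (-1.11 ± 0.22). At 2 h ERF6 (1.01 ± 0.23), ERF2 (0.88 ± 0.17), ERF1A (0.73 ± 0.21) and ERF1 (0.60 ± 0.16) were higher. ERF1A was lost in 5 of the 6 fits that leave out a library at each time (0.69 to 0.79 at 1 h and 0.66 to 0.76 at 2 h), and ERF1 at 2 h in 4 of 6 (0.54 to 0.61). At 0 h the leave-out fit without wrky18 replicate 3 called ERF6 (1.5), ERF104 (1.27) and ERF105 (1.2), that without wrky18 replicate 1 called ERF1 (0.94), and that without double mutant replicate 1 called ERF6 (1.1).

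Against wrky40, ERF1 was called higher in the double mutant at 0 h (0.85 ± 0.22, edgeR adjusted p = 0.043). At 1 h 0 members were called (2 at an unadjusted p below 0.05, and 0 by DESeq2). ERF105 was lower at 2 h (-0.95 ± 0.27, adjusted p = 0.049). The shares of all genes were 1.52%, 0.112% and 3.26%. ERF105 had 6.09, 6.78 and 6.67 CPM in the double mutant at 2 h against 9.08, 14.5 and 13.9 CPM in wrky40, and the groups did not overlap. Both calls were lost in 5 of the 6 fits without 1 library, ERF1 with 0.58 to 0.94 and ERF105 with -0.97 to -0.83. For the genes with large wrky40 effects the added differences at 1 h were 0.19 ± 0.17 for DEWAX, 0.24 ± 0.17 for ERF2, 0.52 ± 0.19 for ERF1 and 0.65 ± 0.22 for ORA59, so effects of that size were not resolved.

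The last comparison asks whether the response to flg22 itself differed from WT. For wrky18, edgeR called 0 members at 1 h and 2 h, 0 of 10 at an unadjusted p below 0.05 and 0 by DESeq2, and it called 0% of all genes. Over all genes 612 at 1 h and 1522 at 2 h had an unadjusted p below 0.05, and DESeq2 called 0 and 2. For wrky40 it called 0 members at both times, beside 0.0937% and 0.215% of all genes, with 5 and 0 members at an unadjusted p below 0.05. DESeq2 called 1 at 1 h (DEWAX, 0.88) and 0 at 2 h. Without WT replicate 3 at 0 h, ERF6 (-1.67), ERF104 (-1.90) and ERF105 (-1.60) were called at 1 h and ERF1A (-0.90) at 2 h, beside 0.233% and 0.307% of all genes, and without wrky40 replicate 1 at 1 h DEWAX was called (1.08). Since WT replicate 3 at 0 h was singled out for its high values of the members, those shares are not a like measure.

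For the double mutant 2 members were called at 1 h, DEWAX and ERF13, beside 0.824% of all genes. At 2 h 0 were called by edgeR and 0 by DESeq2, beside 1.95% of all genes, with 1 member at an unadjusted p below 0.05. DEWAX fell by 1.82 ± 0.16 in the double mutant against 3.04 ± 0.18 in WT, a difference of 1.22 ± 0.23 (edgeR adjusted p = 0.0074). ERF13 rose by 2.75 ± 0.28 against 4.73 ± 0.31, a difference of -1.98 ± 0.45 (adjusted p = 0.027). The direction of both responses was that of WT and the size was smaller. ORA59 (1.22 ± 0.32), ERF105 (-1.27 ± 0.35) and ERF104 (-1.55 ± 0.43) had differences of like size that were not called. DESeq2 added ORA59 (1.22), and leaving out WT replicate 3 at 0 h added ERF6 (-1.90), ERF104 (-2.26) and ERF105 (-1.94) at 1 h, and ERF1A (-0.72) and ERF105 (-1.85) at 2 h, where 1.26% and 2.27% of all genes were called. The same limit holds for these shares, since that library was singled out by the members. The ERF13 call was lost in 7 of the 12 fits without 1 library, with differences of -1.99 to -1.73, and these were WT replicates 1 and 2 at 0 h, WT replicate 2 at 1 h, and double mutant replicates 2 and 3 at 0 h and 1 and 3 at 1 h. The DEWAX call held in all 12.

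**Figure D4:**
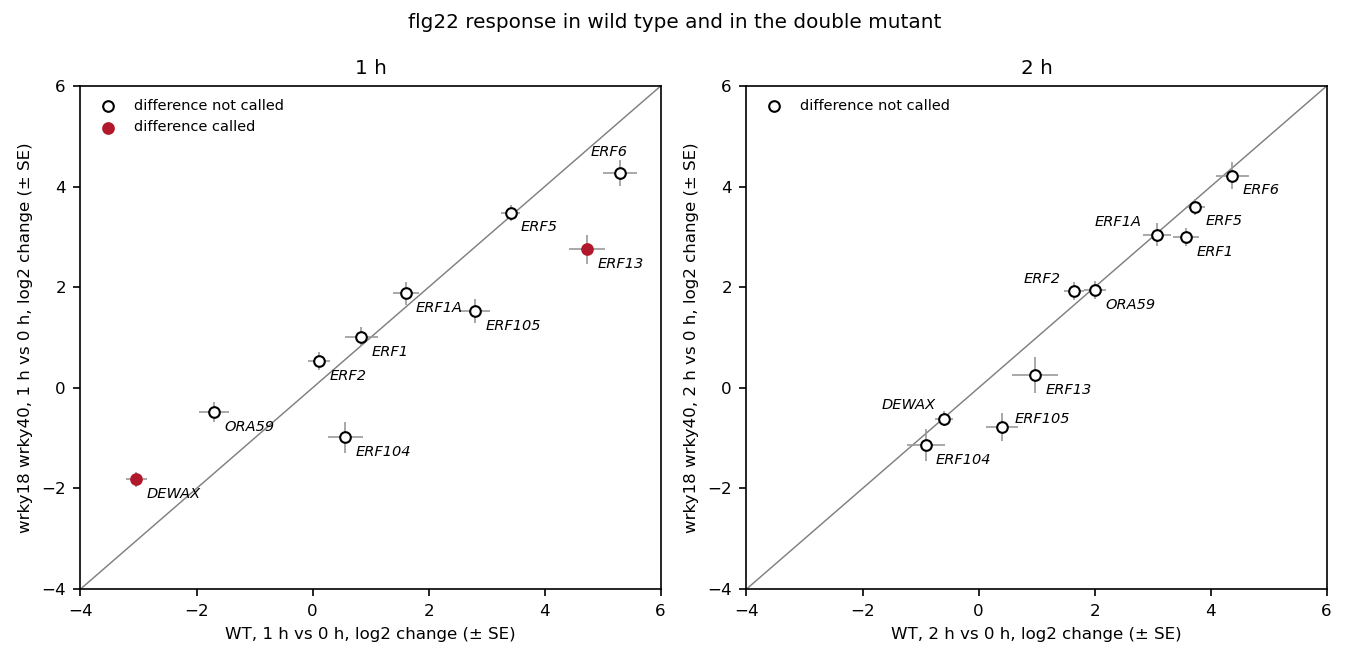
Log2 change after flg22 in the double mutant (± SE) against that in WT (± SE) for each gene, at 1 h and at 2 h, with the line of equal change; red points mark a called difference. At 1 h DEWAX (-3.04 in WT, -1.82 in the double mutant) and ERF13 (4.73 and 2.75) lie closer to 0 on the double mutant axis.

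Genes around the members in the same pathway were described from fixed lists. Of 7 other group IX genes, 5 passed the filter. At 1 h in WT 4 rose and 1 fell, where 28.8% of all tested genes rose and 32% fell. TDR1 went from 0.099 ± 0.087 CPM at 0 h to 66.5 ± 2.7 CPM at 1 h and 12.9 ± 1.64 CPM at 2 h, and ERF15 from 5.41 ± 0.957 to 64.2 ± 5.51 and 28.5 ± 3.04 CPM. At 2 h in the double mutant TDR1 had 38.1 ± 2.22 CPM and was 1.57 ± 0.15 above WT. Group VIII ERF repressors bind the GCC-box and carry an EAR repression motif. Of 8 such genes, 6 rose in WT at 1 h and 6 at 2 h, where 28.8% and 36.7% of all genes rose. They were led by ERF11 (2.96 ± 0.15 at 1 h). In the double mutant 1 of 8 was above WT at 0 h (ERF4, 0.50 ± 0.13), 1 at 1 h (ERF9, 0.72 ± 0.15) and at 2 h their differences ran from -0.38 to 0.43 without a call. Over all genes 1.84%, 3.99% and 7.23% were higher at these times.

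Upstream of the members, the kinase gene MPK3 rose by 3.59 ± 0.11 at 1 h in WT and differed from WT by -0.19 ± 0.10 in the double mutant at 1 h, which was not called. MPK4, another MAP kinase gene of flg22 signalling, was 0.31 ± 0.06 above WT there. Of 11 genes of ethylene perception and signalling, 5 rose and 4 fell at 1 h in WT, where 28.8% of all genes rose and 32% fell. Among them were the receptors ETR1 at 1.22 ± 0.07 and ERS2 at -1.02 ± 0.11 and EIN2, a central transducer, at -0.83 ± 0.09. In the double mutant at 1 h 3 of 11 were above WT, EBF2 (0.66 ± 0.12), ERS2 (0.54 ± 0.11) and CTR1 (0.24 ± 0.07), where 3.99% of all genes were.

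Downstream, the 7 GCC-box defence targets included 1 that was lower after flg22 in WT at 1 h (PDF1.3, -1.11 ± 0.42) and 2 that were higher at 2 h (PDF1.1, 1.78 ± 0.41, and PR4, 0.51 ± 0.17). Over all genes 32% were lower at 1 h and 36.7% higher at 2 h. Against WT, the double mutant had 5 of 7 higher at 0 h, 4 at 1 h and 4 at 2 h, where 1.84%, 3.99% and 7.23% of all genes were higher. The defensin PDF1.2a had 0.870 ± 0.359 CPM in WT and 5.65 ± 1.94 CPM in the double mutant at 0 h (2.68 ± 0.49), and the chitin-binding PR4 had 140 ± 9.4 against 245 ± 26 CPM (0.81 ± 0.18). PDF1.2a, PDF1.2b, PDF1.2c and PDF1.3 are close copies, so reads may be split between them and they are not separate counts. Of 4 wax genes known as DEWAX targets, the differences of the double mutant from WT at 1 h, when DEWAX itself was higher, ran from -0.22 to -0.06 without a call. At 2 h 2 of them were lower, CER10 (-0.46 ± 0.09) and LACS2 (-0.42 ± 0.11), where 6.96% of all genes were lower.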

How the data were processed

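Poly(A) RNA of whole seedlings was sequenced from stranded TruSeq libraries, per the labels' protocols. Per the submitters' processing notes, FastQC 0.11.2, TopHat2 2.0.10 and HTSeq were used with the build TAIR10; the strand setting is not given in the sources used here. The authors deposited raw counts per gene, in 1 table of 32678 genes for 36 libraries, with no normalization. From these counts edgeR 4.0.16 (R 4.3.3) kept 21356 genes with filterByExpr (minimum count 10, minimum total 15), scaled them by TMM and fitted quasi-likelihood models over all 12 groups with 24 residual degrees of freedom. Benjamini-Hochberg adjustment ran over all tested genes, and a call is an adjusted p below 0.05. The SE is the log2 change divided by the root of F. DESeq2 1.42.0, upper quartile factors, no filter, a replicate block, fits on only the groups compared and fits without each library were alternatives. Depth was 17287229 to 38709715 counts a library; per-library values carry counting error, which for the lowest member (ERF13 at 0 h, 8 to 20 counts in WT) is large. The 10 genes named and the pathway lists were chosen with earlier results of these data known. All 10 were named by rule, and list genes by smallest adjusted p. Replicates are biological per the series' design; whether they are separate cultures is not given in the sources used here. Gene positions, symbols and promoters are from RefSeq TAIR10.1, which has entries for 31912 of the 32678 identifiers, and were matched by locus identifier.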

Additional observations from a re-analysis of the deposited data

Results flagged for a closer look

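Differences in the response to flg22 between the double mutant and WT were called for a pair of members at 1 h. DEWAX fell less in the double mutant, a difference of 1.22 ± 0.23 (SE) on the log2 scale, or 1.215 before rounding. ERF13 rose less in the double mutant, a difference of -1.98 ± 0.45. Each was marked because the test of the difference itself passed an edgeR adjusted p below 0.05. The level of DEWAX at 1 h was 14.2 ± 2.34 CPM in the double mutant and 5.15 ± 0.85 CPM in WT (SD, n = 3), and that of ERF13 was 5.48 ± 0.374 and 11.4 ± 1.94 CPM. The DEWAX call held without any 1 of the 12 libraries it uses, and the ERF13 call was lost in 7 of these 12 fits.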

How the results depend on the processing

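No called change of a member reversed its direction under any alternative run. Upper quartile factors moved the median of all genes at 2 h against 0 h in WT by -0.27 on the log2 scale (-0.20 at 1 h) and kept each count of called members within 1.5 times, with 4 calls lost (ERF13 in WT at 2 h against 0 h, 0.71; ORA59 in the double mutant against WT at 2 h, 0.48; ERF2 at 1 h against 0 h, 0.31 in the double mutant and 0.30 in wrky40) and 1 gained (ERF104 at 1 h against 0 h in wrky40, -0.83). The counts called against WT that moved by over 1.5 times were as follows, and smaller moves follow them. In wrky18, DESeq2 called 1, 2 and 1 at 0 h, 1 h and 2 h, fits on only the groups compared called 4 at 1 h and 2 at 2 h, and the replicate block called 1 at 1 h, against 0. In wrky40 at 0 h, the filter-free fit and the replicate block called 2, DESeq2 5 and only the groups compared 0, against 1; at 2 h the filter-free fit and the block called 5 and only the groups compared 7, against 3. In the double mutant at 0 h only the groups compared called 1, against 5. Among the moves within 1.5 times were, with only the groups compared, 8 in wrky40 at 1 h against 6, and in the double mutant 10 at 1 h against 7 and 8 at 2 h against 6, and with the replicate block and by DESeq2 7 in the double mutant at 0 h against 5. Against wrky18, the double mutant had 1 call at 0 h without the filter and with the block and 2 by DESeq2, against 0, and 8 at 1 h with only the groups compared, against 5. Against wrky40, only the groups compared gave 0 at 0 h, against 1, and 4 at 2 h, against 1. For the response difference at 1 h, DESeq2 called 1 in wrky40, against 0, and the replicate block called 5 in the double mutant, against 2: DEWAX, ERF13, ORA59 (1.24), ERF105 (-1.28) and ERF104 (-1.64). The block also called ERF104 (0.98) and ERF105 (0.95) in the double mutant against WT at 0 h.

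Leaving out 1 library gave ranges of 0 to 3 (wrky18, 0 h), 0 to 1 (wrky18, 1 h), 0 to 8 (wrky40, 0 h) and 2 to 7 (double mutant, 0 h) against WT. They were 0 to 3 at 0 h and 2 to 4 at 2 h for the double mutant against wrky18, and 0 to 1 at 0 h and at 2 h against wrky40. For response differences they were 0 to 3 (wrky40, 1 h), 0 to 1 (wrky40, 2 h), 1 to 5 (double mutant, 1 h) and 0 to 2 (double mutant, 2 h). The upper ends at 0 h against WT and for the response differences came without WT replicate 3 at 0 h. Those fits kept replicate 3 of the mutants, so the replicate numbers compared were no longer matched. Where 1 library is left out of a group, the spread is shared with the other groups. The cause of these shifts was not tested, except that fits on only the groups compared estimate the spread from fewer samples.

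Libraries with the same replicate number deviated together in 127 of 198 pairs at r above 0.1 (median 0.134, lowest -0.0341). Pairs with different numbers had a median of -0.0721, and 35 of 36 libraries correlated best with their own number. The deviations are from the group mean and cancel within a group, so the negative median follows from the positive one and adds no separate support. The pattern by replicate number comes from the data and not from a stated design, and the main fit does not include it. With the replicate block 15 results of members gained a call and none lost one, counted as 0 of 330. Depth limits ERF13 and ERF1 most, with 8 to 20 and 15 to 31 counts in the untreated WT libraries.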
